A study of Mus musculus with 2 samples.

Results

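The genes of the ISG15 conjugation system were followed in mouse RM-1 tumours: Isg15 itself, the protease gene Usp18 and the genes of the conjugating enzymes, Uba7, Ube2l6 and Herc6. These 5 genes, of 55357 features in both count matrices, were taken by their symbols, and each symbol was present once. RM-1 is a mouse prostate cancer cell line, labelled wild type, that was grafted under the skin of C57BL/6 mice. RP-6306 inhibits PKMYT1, a kinase that holds CDK1 inactive before mitosis. The tumours were collected 10 days after treatment, 1 library with RP-6306 and 1 library with vehicle. The labels do not say clearly whether a library pools animals, both libraries come from 1 graft model, and all cells of a library share its preparation.

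ISG15 is a small ubiquitin-like protein that interferon induces and that is joined to other proteins much as ubiquitin is. UBA7 is the activating enzyme of this chain, UBE2L6 carries the activated ISG15, and in mice HERC6 is the main ligase that passes it to targets (in humans HERC5 has this role). USP18 removes ISG15 from its targets and also sits on the type I interferon receptor subunit IFNAR2, where it dampens signalling. Transcription of this gene set is known to be driven by ISGF3, a complex of interferon-activated transcription factors that binds the interferon-stimulated response element (ISRE) in promoters. Transcript counts do not measure free ISG15 or conjugates.

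Isg15 and Uba7 had the highest and the lowest ratio between the libraries in tumour cells, and their promoters are shown for that reason. Each window holds 250 bases before to 50 after the RefSeq start site (GRCm38.p6), written 5′ to 3′ on the gene's own strand. Capitals mark matches to the ISRE core, taken as 2 copies of GAAA with 2 bases of any kind between them and searched on both strands. The window of Isg15 is chr4:156200769-156201068 on the minus strand, and that of Uba7 is chr9:107975317-107975616 on the plus strand.
Isg15: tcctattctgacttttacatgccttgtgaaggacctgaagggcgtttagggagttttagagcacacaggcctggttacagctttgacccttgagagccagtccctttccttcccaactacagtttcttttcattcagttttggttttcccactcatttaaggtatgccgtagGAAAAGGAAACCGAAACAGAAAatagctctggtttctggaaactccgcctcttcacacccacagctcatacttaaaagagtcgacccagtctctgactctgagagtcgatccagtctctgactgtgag
Uba7: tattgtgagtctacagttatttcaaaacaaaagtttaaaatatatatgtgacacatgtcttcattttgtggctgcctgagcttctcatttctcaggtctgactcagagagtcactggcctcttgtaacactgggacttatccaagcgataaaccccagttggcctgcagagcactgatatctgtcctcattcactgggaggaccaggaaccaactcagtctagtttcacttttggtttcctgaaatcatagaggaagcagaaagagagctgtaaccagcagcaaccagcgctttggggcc
The capitals in the Isg15 window cover 3 overlapping ISRE matches, which begin 78, 72 and 66 bases before the start site. The window of Uba7 held no match, and neither did those of Ube2l6 (chr2:84798578-84798877, plus strand) and Herc6 (chr6:57580742-57581041, plus strand). An ISRE match was present in 1131 of 32851 RefSeq promoter windows of this length (3.44%). The GAS element TTCNNNGAA, another interferon-response motif, was absent from all 4 windows and present in 2726 windows (8.30%). A match is a string of letters, not a measured binding site. Only exact matches were counted, so a window without one can still hold a close variant of the ISRE. The Uba7 window holds such a variant on the opposite strand. Whether it binds ISGF3 was not tested. Usp18 is named only.

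Positions come from the gene identifiers in the files, matched to GENCODE M21 on GRCm38. Isg15 (ENSMUSG00000035692) lies on chromosome 4 from 156199424 to 156200818, with 2 exons on the minus strand and no overlapping annotated gene. Usp18 (ENSMUSG00000030107, chromosome 6, 121245906 to 121270917, plus strand, 11 exons) is overlapped on the other strand by Gm44148, which had 48 UMIs in RP-6306 tumour cells and 26 in vehicle tumour cells. Uba7 (ENSMUSG00000032596, chromosome 9, 107975505 to 107984060, plus strand, 24 exons) shares its strand with Gm20661, which had 2 UMIs in RP-6306 and 1 in vehicle tumour cells. Ube2l6 (ENSMUSG00000027078, chromosome 2, 84798828 to 84810335, plus strand) has 4 exons and no overlapping gene. Herc6 (ENSMUSG00000029798, chromosome 6, 57581000 to 57664632, plus strand, 23 exons) is overlapped by Gm45193 on its strand and Gm19244 on the other. All 5 are protein-coding, and reads shared between overlapping genes cannot be assigned with certainty.

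A UMI (unique molecular identifier) stands for 1 captured transcript molecule. The RP-6306 library held 10512 barcodes and 106465655 UMIs, and the vehicle library 9686 barcodes and 100815022 UMIs, with 34 barcodes occurring in both. After filtering, 9500 RP-6306 cells and 8856 vehicle cells were retained and sorted into classes by marker genes. Tumour cells were 7810 (82.2%) of the RP-6306 cells and 7503 (84.7%) of the vehicle cells, with median depths of 9850 UMIs in RP-6306 and 9913 UMIs in vehicle. Macrophages numbered 401 in the RP-6306 library and 361 in the vehicle library. T cells (45 in RP-6306 and 28 in vehicle) and fibroblasts (47 in RP-6306 and 36 in vehicle) were few. The T cells were shallow, with medians of 1268 UMIs in RP-6306 and 1447 UMIs in vehicle. The tumour gate rested on Krt8, Krt18, Krt19 and Sox9, while Epcam (3.79 CPM in RP-6306 and 3.30 CPM in vehicle) and Cdh1 (0.219 CPM in RP-6306 and 0.130 CPM in vehicle) were close to absent. CPM is the number of UMIs of a gene per 1000000 UMIs of that class and library. The spread between animals could not be measured with 1 library per treatment, so no test was run. All intervals are 95% intervals that cover counting error only.

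In tumour cells, all 5 genes had a higher level in the RP-6306 library, with ratios from 1.07 for Uba7 to 1.83 for Isg15. Isg15 stood at 106 CPM (104 to 108; 9229 UMIs) in RP-6306 tumour cells, against 58.0 CPM (56.4 to 59.6; 4914 UMIs) in vehicle tumour cells. The ratio was 1.83 (1.77 to 1.90), a log2 ratio of 0.86 on the log2(CPM + 1) scale used for every log2 value here. Isg15 thus had the largest ratio of the 5 members in these cells, and its interval lay far from 1.

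Usp18, the protease and brake on the receptor, had 6.76 CPM (6.22 to 7.33; 587 UMIs) in RP-6306 tumour cells, against 4.25 CPM (3.82 to 4.71; 360 UMIs) in vehicle tumour cells, a ratio of 1.59 (1.39 to 1.82). Herc6, the ligase, had 10.1 CPM (9.43 to 10.8) in RP-6306 and 6.77 CPM (6.23 to 7.35) in vehicle, a ratio of 1.49 (1.34 to 1.66). Both intervals lay above 1. The Herc6 interval ended under the lower bound of Isg15, while that of Usp18 reached into it.

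The enzymes that act before the ligase differed least. Ube2l6, the conjugating enzyme, had 15.9 CPM (15.04 to 16.7; 1378 UMIs) in RP-6306 tumour cells and 13.1 CPM (12.3 to 13.9; 1109 UMIs) in vehicle tumour cells, a ratio of 1.21 (1.12 to 1.31). Uba7, the activating enzyme, had 2.28 CPM (1.97 to 2.62; 198 UMIs) in RP-6306 tumour cells and 2.12 CPM (1.82 to 2.46; 180 UMIs) in vehicle tumour cells. Its ratio of 1.07 (0.873 to 1.32) was within counting error, and an increase of up to 1.32-fold is compatible with these counts.

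Of the 5 members, 5 were higher with RP-6306, against 46.0% of the 17894 features with at least 20 UMIs in tumour cells. At least 1.5-fold higher were 2 of 5, Isg15 and Usp18, against 5.26% of features. The median log2 ratio was 0.51 over the members and -0.01 over all features tested. Summed over the members, the level was 141 CPM in RP-6306 tumour cells and 84.2 CPM in vehicle tumour cells, a ratio of 1.68 (1.63 to 1.73).

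**Figure D1:**
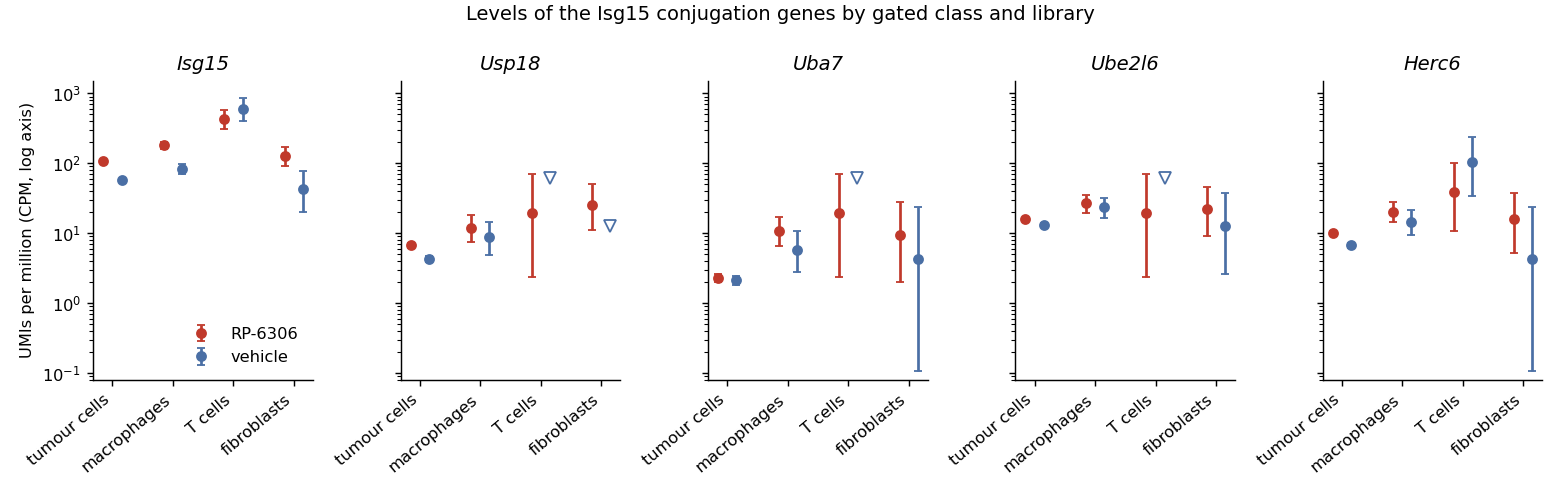
Level of each member in CPM (log axis) by gated cell class, with RP-6306 in red left of vehicle in blue. Points are 1 library each and bars are exact Poisson 95% intervals; open triangles mark the level that 3 UMIs would give where the vehicle library had none. In tumour cells Isg15 stands at 106 CPM in RP-6306 and 58.0 CPM in vehicle, while the intervals of Uba7 overlap.

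Some stromal markers were also found in the tumour gate, while leukocyte markers were low. The 8 fibroblast markers, none at 0, summed to 873 CPM in RP-6306 tumour cells and 790 CPM in vehicle tumour cells, mostly Col3a1 and Col1a1, against 72465 CPM in RP-6306 fibroblasts and 69055 CPM in vehicle fibroblasts. The 6 endothelial markers, none at 0, summed to 60.2 CPM in RP-6306 tumour cells and 50.5 CPM in vehicle tumour cells, mostly Cdh5. The 11 macrophage markers, none at 0, summed to 42.1 CPM in RP-6306 tumour cells and 43.3 CPM in vehicle tumour cells, against 18179 CPM in RP-6306 macrophages and 18430 CPM in vehicle macrophages. The 6 neutrophil markers, none at 0, summed to 10.1 CPM in RP-6306 and 2.77 CPM in vehicle, and S100a8 and S100a9 made up most of that sum. In RP-6306, 1 cell held 218 of the 417 S100a8 UMIs, and 1 cell held 166 of the 354 S100a9 UMIs. The tumour markers themselves summed to 1673 CPM in RP-6306 and 1960 CPM in vehicle, a difference in the opposite direction to Isg15. The part of these marker differences in the Isg15 result was not tested.

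Isg15 transcripts were spread unevenly over tumour cells, and the RP-6306 library had more cells at each level above 0. At least 1 UMI was found in 35.5% of RP-6306 tumour cells (2775 of 7810) and in 26.0% of vehicle tumour cells (1952 of 7503). At least 5 UMIs were found in 6.98% of RP-6306 cells and 3.36% of vehicle cells. Cells with 10 or more UMIs numbered 211 (2.70%) in RP-6306 and 81 (1.08%) in vehicle, while the highest cell had 48 UMIs in RP-6306 and 45 in vehicle. The highest 1% of cells held 19.1% of the Isg15 UMIs in RP-6306 and 26.4% in vehicle. The highest cells thus held a smaller share of the total in RP-6306 than in vehicle.

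**Figure D2:**
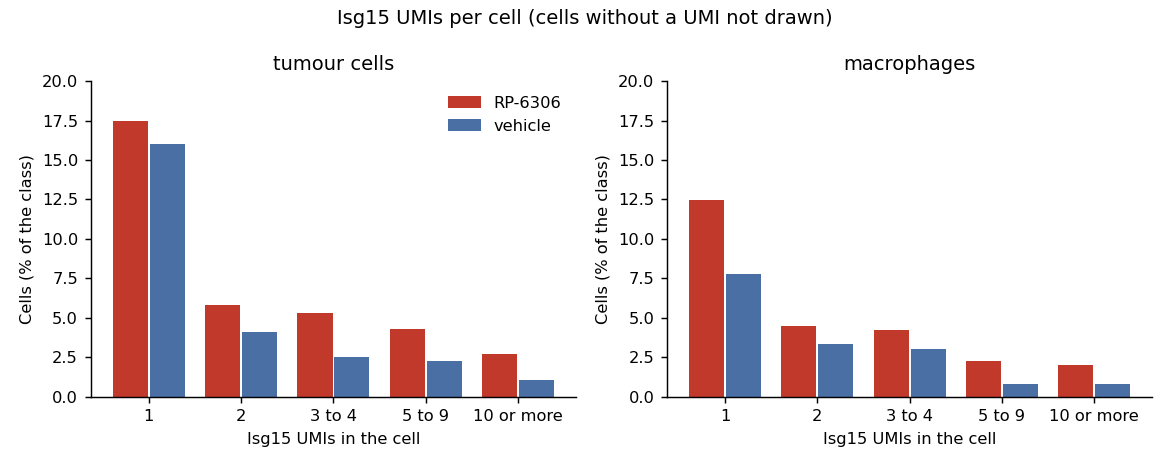
Percent of tumour cells (left) and macrophages (right) by number of Isg15 UMIs in the cell, RP-6306 in red and vehicle in blue, 1 library each; cells with no Isg15 UMI are not drawn. The RP-6306 bar is the taller in every bin of both classes, and in tumour cells 2.70% of RP-6306 cells and 1.08% of vehicle cells have 10 or more.

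To compare shares at equal depth, each tumour cell was thinned to 2000 UMIs, which left 7712 RP-6306 cells and 7429 vehicle cells (98 shallower RP-6306 cells and 74 shallower vehicle cells were left out). Isg15 was then detected in 14.7% of RP-6306 cells and 8.52% of vehicle cells, a difference of 6.13 percentage points (5.11 to 7.15). Usp18 was detected in 1.41% of RP-6306 cells and 0.794% of vehicle cells (difference 0.619, 0.279 to 0.965). Herc6 was detected in 2.20% of RP-6306 cells and 1.45% of vehicle cells (difference 0.751, 0.316 to 1.19). These 3 members were found in more RP-6306 cells at this depth. With cells thinned to 1000 UMIs, the Isg15 difference was 3.16 percentage points (9.52 without thinning), and that of Usp18 was within counting error (0.693% of RP-6306 cells and 0.574% of vehicle cells; difference 0.119, -0.143 to 0.382). At 2000 UMIs, Ube2l6 was detected in 3.24% of RP-6306 cells and 2.92% of vehicle cells, and the difference of 0.321 (-0.240 to 0.881) was within counting error. At the same depth Uba7 was detected in 0.454% of RP-6306 cells and 0.579% of vehicle cells, opposite in direction to its CPM and within counting error (-0.125, -0.368 to 0.113), so no order is read from it. Without thinning, Usp18 was found in 5.30% of RP-6306 cells and 3.64% of vehicle cells, Herc6 in 9.76% of RP-6306 cells and 7.01% of vehicle cells, Ube2l6 in 14.0% of RP-6306 cells and 12.4% of vehicle cells, and Uba7 in 2.48% of RP-6306 cells and 2.29% of vehicle cells. No class here is known to lack these genes, so no background share from free RNA could be set for them.

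Tumour cells with Isg15 more often held Usp18 and Herc6 in both libraries, and Ube2l6 beyond counting error in RP-6306. Of the thinned tumour cells, 1130 in RP-6306 and 633 in vehicle had an Isg15 UMI. In the RP-6306 library, Usp18 was detected in 4.87% (3.69 to 6.29) of cells with Isg15 and 0.820% (0.617 to 1.07) of cells without it, a ratio of 5.93. In the vehicle library it was detected in 2.37% (1.33 to 3.88) of cells with Isg15 and 0.647% (0.471 to 0.868) of cells without it, a ratio of 3.66. With cells thinned to 1000 UMIs the ratio was 6.64 (3.62 to 11.9) in RP-6306 and 8.27 (3.96 to 16.3) in vehicle, so no order between the libraries is read from it. Read from the other side, 50.5% (40.7 to 60.2) of the 109 Usp18-positive RP-6306 cells also had Isg15, as did 25.4% (14.98 to 38.4) of the 59 Usp18-positive vehicle cells.

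Herc6 was found in 4.42% of RP-6306 cells with Isg15 and 1.82% of those without, and in 3.32% of vehicle cells with Isg15 and 1.28% of those without. Ube2l6 was found in 5.49% of RP-6306 cells with Isg15 and 2.86% of those without. In vehicle cells its shares were 4.11% (2.70 to 5.96) with Isg15 and 2.81% (2.43 to 3.23) without, whose intervals overlap. Uba7 did not separate the cells beyond counting error in either library at this depth: 0.531% with Isg15 and 0.441% without in RP-6306, and 0.948% with Isg15 and 0.544% without in vehicle. The share with Isg15 rested on 6 cells in each library. Co-detection was computed for all 10 pairs of members, and the pairs without Isg15 rested on at most 10 cells in a library.

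**Figure D3:**
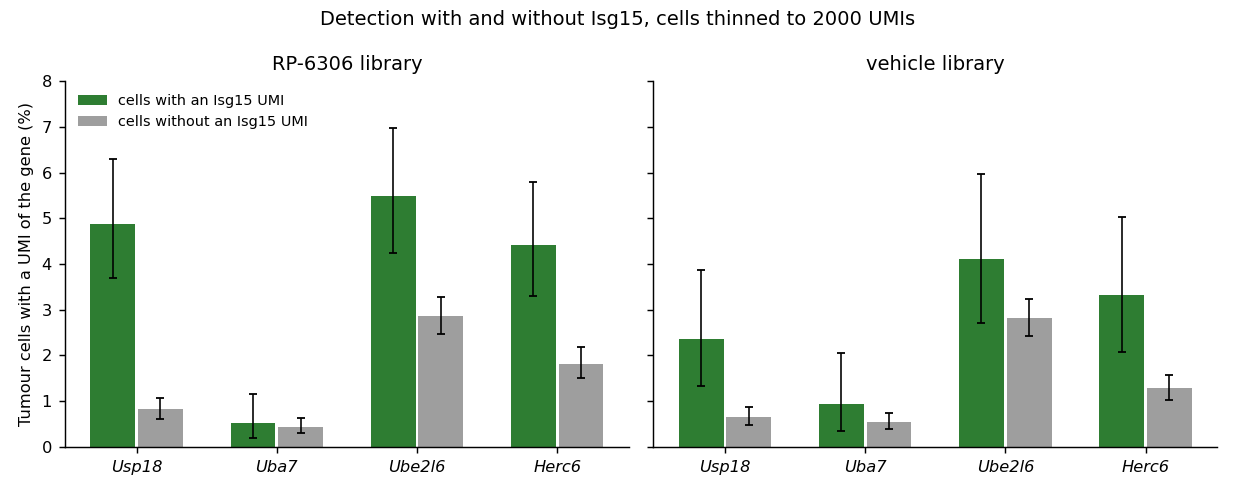
Percent of tumour cells with a UMI of Usp18, Uba7, Ube2l6 or Herc6, among cells with (green) and without (grey) an Isg15 UMI, in the RP-6306 library (left) and the vehicle library (right). Cells were thinned to 2000 UMIs and bars carry exact binomial 95% intervals. Usp18 shows the widest gap in RP-6306, 4.87% with Isg15 and 0.820% without, and Uba7 shows none beyond its intervals.

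The levels of Usp18 and Herc6 were also higher in tumour cells with more Isg15. In the thinned RP-6306 tumour cells, Usp18 had 4.25 CPM in cells with 0 Isg15 UMIs, 10.9 CPM with 1, 52.5 CPM with 2 and 78.4 CPM (50.3 to 117) with 3 or more. In vehicle tumour cells the same steps gave 3.31, 6.44, 15.8 and 111 CPM (63.5 to 180). The steps rest on few UMIs, 56, 17, 21 and 24 in RP-6306 and 45, 6, 3 and 16 in vehicle, and all cells of a step share 1 library. Herc6 had 9.27, 19.3, 22.5 and 42.5 CPM over these steps in RP-6306 and 6.47, 10.7, 26.3 and 41.7 CPM in vehicle. Ube2l6 ran from 14.8 CPM at 0 to 32.7 CPM at 3 or more in RP-6306, past 47.5 CPM at 2, and from 14.5 CPM at 0 to 55.6 CPM at 3 or more in vehicle. Uba7 had at most 3 UMIs in a step with Isg15 in RP-6306 and at most 4 in vehicle.

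**Figure D4:**
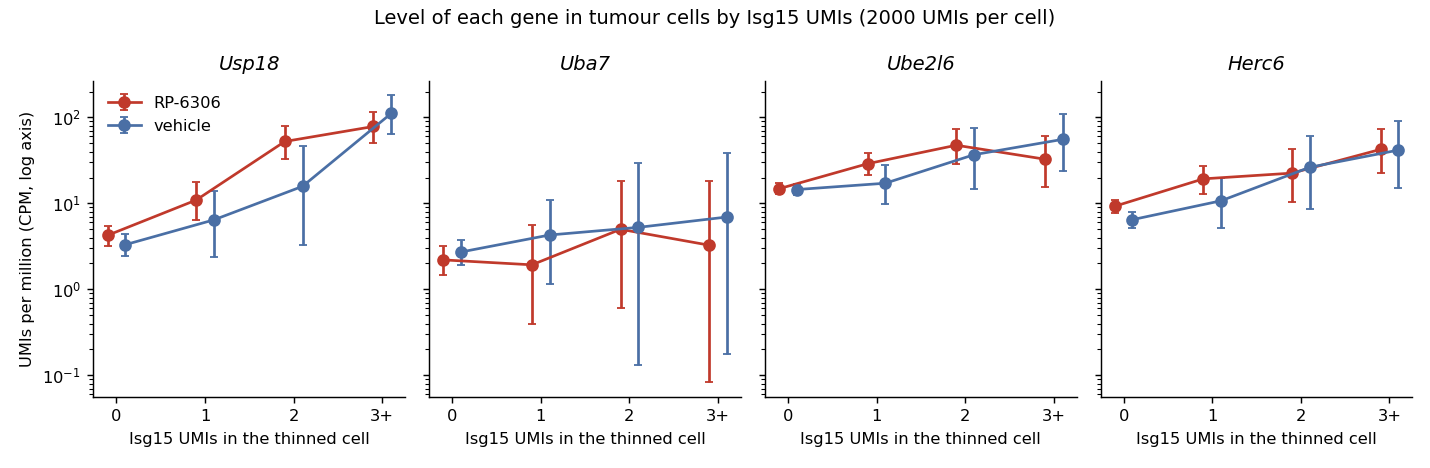
Level of Usp18, Uba7, Ube2l6 and Herc6 in CPM (log axis) in tumour cells with 0, 1, 2 or 3 and more Isg15 UMIs, all cells thinned to 2000 UMIs, RP-6306 in red and vehicle in blue, with exact Poisson 95% intervals. Usp18 climbs the most, to 78.4 CPM in RP-6306 and 111 CPM in vehicle, while the intervals of Uba7 overlap at every step.

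Few cells held several members at once at this depth. At least 2 of the 5 were detected in 167 thinned RP-6306 tumour cells (2.17%) and 74 vehicle cells (0.996%). At least 3 were detected in 15 RP-6306 cells and 5 vehicle cells, and no thinned tumour cell held 4 or 5; at 3 cells of the total, a count of 0 allows a share of up to 0.0389% in RP-6306 and 0.0404% in vehicle.

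The genes whose pattern over single tumour cells was most like that of Isg15 were other interferon-stimulated genes. Likeness was the Pearson correlation of log-scaled UMIs per 10000 over 7810 RP-6306 cells and 7503 vehicle cells, ranked over 12621 genes by the lower of both libraries' values. It is a description, since cells of a library share their source and depth. Rsad2, which encodes the antiviral protein viperin, came first, with r of 0.47 in RP-6306 and 0.42 in vehicle. Ifit1, which binds foreign RNA caps, followed with 0.43 in RP-6306 and 0.41 in vehicle, then Cxcl10, a T-cell attracting chemokine, with 0.39 in RP-6306 and 0.38 in vehicle. Ifit3 (0.40 in RP-6306 and 0.36 in vehicle) and Rtp4 (0.36 in RP-6306 and 0.31 in vehicle) were next. Among the members, Usp18 ranked 11, with r of 0.29 in RP-6306 and 0.23 in vehicle. Herc6 ranked 32 (0.18 in RP-6306 and 0.15 in vehicle), Ube2l6 53 (0.20 in RP-6306 and 0.12 in vehicle) and Uba7 575 (0.032 in RP-6306 and 0.022 in vehicle). Uba7 had a UMI in only 2.48% of RP-6306 and 2.29% of vehicle tumour cells. The part of such sparse detection in these ranks was not tested.

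The other interferon-stimulated genes of the pathway list stood higher with RP-6306. All 20 had a ratio above 1 in tumour cells, from 1.03 for Parp9 to 2.89 for Ifit3. At least 1.5-fold higher were 15, with a median log2 ratio of 0.72 over the list. Of all features tested in tumour cells, 46.0% were higher and 5.26% at least 1.5-fold higher. Bst2, which tethers budding virus, had 142 CPM in RP-6306 and 82.1 CPM in vehicle (ratio 1.72). Rsad2 had 58.4 CPM in RP-6306 and 22.6 CPM in vehicle (ratio 2.58, 2.45 to 2.72), Ifit3 had 14.0 CPM in RP-6306 and 4.84 CPM in vehicle (2.89, 2.58 to 3.24), and Ifit1 had 14.4 CPM in RP-6306 and 5.40 CPM in vehicle (2.67, 2.40 to 2.98). The ratio of Isg15, at 1.83, lay under those of Rsad2, Ifit1 and Ifit3. Ifi35, at 35.3 CPM in RP-6306 and 31.1 CPM in vehicle, had a ratio of 1.13 (1.08 to 1.20).

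Of the ISG15 ligases, proteases and regulators outside the members, 3 of 5 were higher and none reached 1.5-fold, with a median log2 ratio of 0.01. The shares over all features were 46.0% and 5.26%. Trim25, an interferon-inducible ISG15 and ubiquitin ligase, had 47.1 CPM in RP-6306 tumour cells and 36.4 CPM in vehicle tumour cells (ratio 1.30, 1.24 to 1.36). Usp16, a deubiquitinase that can also cleave ISG15, had 41.3 CPM in RP-6306 and 37.0 CPM in vehicle (1.12, 1.06 to 1.17). Usp21, also active on ISG15, had 8.01 CPM in RP-6306 and 8.99 CPM in vehicle (0.891, 0.803 to 0.989). Arih1, a ligase that works with UBE2L-type enzymes, had 53.2 CPM in RP-6306 and 55.5 CPM in vehicle (0.959, 0.921 to 0.999).

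Jak1 and the receptor gene Ifnar2 were near equal or lower with RP-6306, while Stat2 and Irf7 were higher. Of 11 genes in the list of interferon receptor and ISGF3 genes 7 were higher, against 46.0% of all features. At least 1.5-fold higher were 3, against 5.26% of features, and the median log2 ratio was 0.05. Irf7, a factor that amplifies interferon transcription, had 9.57 CPM in RP-6306 and 5.63 CPM in vehicle (1.70, 1.52 to 1.91). Stat2, a part of ISGF3, had 11.1 CPM in RP-6306 and 7.05 CPM in vehicle (1.58, 1.42 to 1.75). Jak1, a receptor kinase, had 174 CPM in RP-6306 and 177 CPM in vehicle (0.987, 0.965 to 1.01). Ifnar2, the receptor subunit that USP18 binds, had 25.2 CPM in RP-6306 and 27.7 CPM in vehicle (0.909, 0.857 to 0.964), and Socs1, another inhibitor of the pathway, 48.4 CPM in RP-6306 and 46.6 CPM in vehicle (1.04, 0.994 to 1.08). Ifnb1, which encodes interferon beta, had 47 UMIs in RP-6306 tumour cells and 5 in vehicle tumour cells, a ratio of 9.17 (3.67 to 29.6). These UMIs lay in 21 RP-6306 cells and 2 vehicle cells, an unevenness that the interval does not cover.

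Genes of proteins known to carry ISG15 were mostly near equal, with a median log2 ratio of 0.04. Higher were 12 of 15, against 46.0% of all features, and at least 1.5-fold higher were 2, against 5.26%. Those 2 were Ifih1, the RNA sensor MDA5 (16.4 CPM in RP-6306 and 9.11 CPM in vehicle, ratio 1.80, 1.65 to 1.97), and Mx1. Mx1, an antiviral GTPase, had 1.72 CPM in RP-6306 and 1.003 CPM in vehicle (1.71, 1.30 to 2.26). Both are interferon-induced and stand in the list of interferon-stimulated genes as well. Trp53, the p53 gene, had 375 CPM in RP-6306 and 365 CPM in vehicle (1.03, 1.01 to 1.04), and Ube2n, a ubiquitin-conjugating enzyme, 245 CPM in RP-6306 and 237 CPM in vehicle (1.03, 1.01 to 1.05).

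The ubiquitin counterparts of the members stood on both sides of 1, with a median log2 ratio of -0.02. Higher were 6 of 13, near the 46.0% of all features, and none was at least 1.5-fold higher, against 5.26%. The ubiquitin genes Rps27a and Ubb each had a ratio of 1.06. Herc3, a relative of Herc6, had 3.94 CPM in RP-6306 and 6.43 CPM in vehicle (0.612, 0.533 to 0.702). Herc1 had 21.6 CPM in RP-6306 and 27.3 CPM in vehicle (0.792, 0.745 to 0.842). The other listed Herc genes were not lower beyond counting error, with ratios of 1.06 (1.004 to 1.13) for Herc2 and 0.985 (0.926 to 1.05) for Herc4. The genes of LFA-1, the integrin that binds extracellular ISG15, are leukocyte genes. Itgb2 had 24.6 CPM in RP-6306 tumour cells and 27.3 CPM in vehicle tumour cells, and Itgal had 27 UMIs in RP-6306 and 20 in vehicle.

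**Figure D5:**
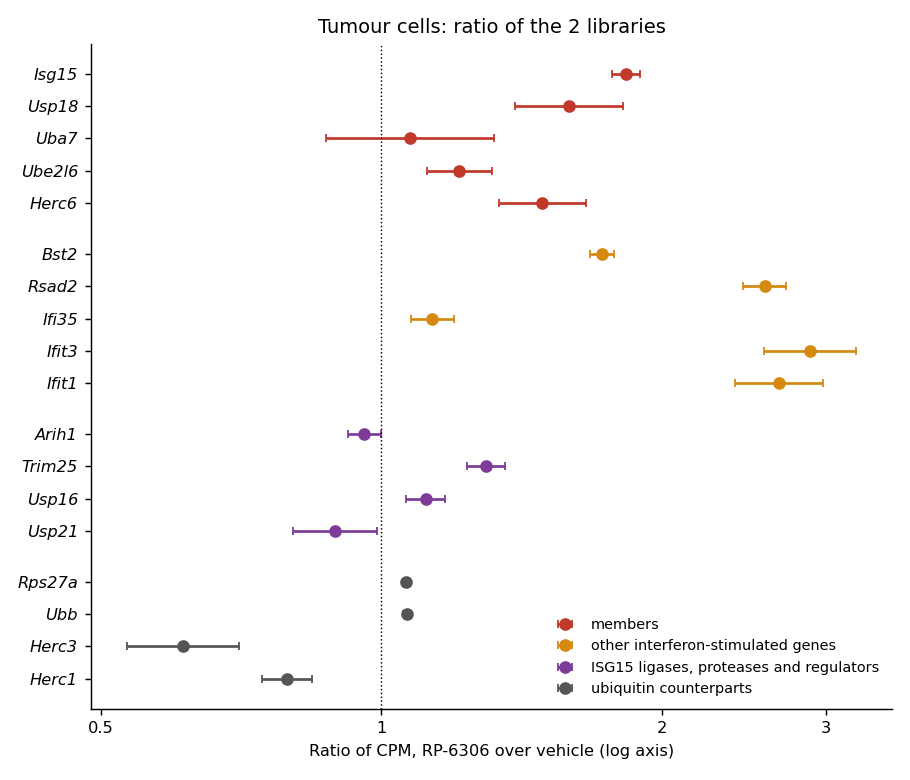
Ratio of CPM in tumour cells, RP-6306 over vehicle (log axis), for the 5 members and named genes of 3 comparison lists, 1 library per treatment. Points are ratios, bars are exact conditional 95% intervals and the dotted line marks 1. Isg15 (1.83) and Usp18 (1.59) lie right of the line among the interferon-stimulated genes, and the interval of Uba7 (1.07) crosses it.

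The Isg15 difference in tumour cells was present within groups of cells that were defined after the data were seen. In cycling cells, those with a UMI of Mki67 or Top2a (2898 in RP-6306 and 3032 in vehicle), Isg15 had 91.5 CPM in RP-6306 and 51.9 CPM in vehicle, a ratio of 1.76 (1.67 to 1.86). In the other tumour cells it had 120 CPM in RP-6306 and 64.3 CPM in vehicle, a ratio of 1.86 (1.78 to 1.95). For Usp18 the ratio was 1.29 (1.05 to 1.59) in cycling cells and 1.82 (1.53 to 2.19) in the others. Herc6 had ratios of 1.45 in cycling cells and 1.54 in the others, and Ube2l6 1.08 (0.957 to 1.21) in cycling cells and 1.34 (1.20 to 1.499) in the others.

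By depth, Isg15 had ratios of 1.56, 1.87 and 1.95 in the shallowest, middle and deepest of 3 groups of about equal size of tumour cells. Usp18 had 104 UMIs in each library's shallowest group, a ratio of 0.956 (0.721 to 1.27), against 2.05 and 1.74 in the deeper groups. In the shallowest group its levels were thus within counting error of each other. Herc6 had 1.22 (0.972 to 1.55), 1.503 and 1.61, and Ube2l6 1.19, 1.19 and 1.23. Uba7 had 43 UMIs in RP-6306 and 56 in vehicle in the shallowest group, a ratio of 0.734 (0.481 to 1.11). Its ratios in the deeper groups were 1.23 (0.848 to 1.79) and 1.21 (0.875 to 1.68). Usp18 and Uba7 were thus not higher with RP-6306 in the shallowest group.

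Tumour cells with an Ifnb1 UMI were 21 in RP-6306 and 2 in vehicle. In the 21 RP-6306 cells Isg15 had 670 CPM (577 to 773, from 188 UMIs). Usp18 had 14.2 CPM (3.88 to 36.5, from 4 UMIs) and Herc6 17.8 CPM (5.78 to 41.6, from 5 UMIs). Ube2l6 and Uba7 had no UMI in these cells, with an upper bound of 13.1 CPM each. Without the Ifnb1-positive cells Isg15 had 104 CPM in RP-6306 and 57.9 CPM in vehicle, a ratio of 1.80.

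In macrophages, all 5 members were higher with RP-6306, but the interval of Isg15 alone excluded a ratio of 1. Isg15 had 181 CPM (161 to 202; 319 UMIs) in RP-6306 macrophages, against 83.3 CPM (70.2 to 98.1; 143 UMIs) in vehicle macrophages, a ratio of 2.17 (1.78 to 2.66) and a log2 ratio of 1.11. Higher were 5 of 5 members, against 48.0% of the 9270 features with at least 20 UMIs, and 2 of 5 were at least 1.5-fold higher, against 6.45%. The second was Uba7, with 10.8 CPM (19 UMIs) in RP-6306 and 5.82 CPM (10 UMIs) in vehicle, a ratio of 1.85 (0.818 to 4.45). Usp18 had 11.9 CPM in RP-6306 and 8.73 CPM in vehicle (1.36, 0.669 to 2.84), Ube2l6 26.6 CPM in RP-6306 and 23.3 CPM in vehicle (1.14, 0.734 to 1.79), and Herc6 20.4 CPM in RP-6306 and 14.6 CPM in vehicle (1.40, 0.818 to 2.43). For these 4 genes, differences of the size seen in tumour cells were not detectable at this depth.

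Isg15 was detected in 25.4% of RP-6306 macrophages and 15.8% of vehicle macrophages. Thinned to 2000 UMIs, 50 RP-6306 and 27 vehicle macrophages were too shallow. Of those left, 17.1% of 351 RP-6306 cells and 9.28% of 334 vehicle cells held Isg15, a difference of 7.81 percentage points (2.56 to 13.0). The shares of the other members in macrophages rested on 3 to 20 cells a library, and the intervals of their differences included 0. Macrophages with Isg15 held Usp18 in 4 of 60 RP-6306 cells and 4 of 31 vehicle cells, while those without it held Usp18 in 2 of 291 RP-6306 cells and 2 of 303 vehicle cells. At least 2 members were found in 17 RP-6306 macrophages and 9 vehicle macrophages, and at least 3 in 2 RP-6306 macrophages and 5 vehicle macrophages. Split by the complement genes C1qa, C1qb and C1qc after the data were seen, macrophages with 2 or 3 of them had 203 CPM of Isg15 in RP-6306 and 92.7 CPM in vehicle (2.19, 1.76 to 2.73). Those with none had 123 CPM in RP-6306 and 48.5 CPM in vehicle (2.55, 1.43 to 4.71), so the direction was shared.

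In macrophages the other interferon-stimulated genes were higher in 19 of 20 cases, 13 of them at least 1.5-fold, with a median log2 ratio of 0.72. Ifih1 was the exception (26.0 CPM in RP-6306 and 27.4 CPM in vehicle). Of all features tested in macrophages, beside which this list and those below stand, 48.0% were higher and 6.45% at least 1.5-fold higher. Bst2 had 316 CPM in RP-6306 and 189 CPM in vehicle (1.67, 1.46 to 1.93), and Ifit3 43.6 CPM in RP-6306 and 22.7 CPM in vehicle (1.92, 1.29 to 2.90). Of the ISG15 ligases, proteases and regulators 1 of 5 was higher, with a median log2 ratio of -0.12. The receptor and ISGF3 list had 6 of 10 higher (median 0.09), the ISGylated proteins 8 of 15 (0.06) and the ubiquitin counterparts 8 of 12 (0.03). Of the LFA-1 genes, Itgal had 121 CPM in RP-6306 macrophages and 93.7 CPM in vehicle macrophages, and Itgb2 201 CPM in RP-6306 and 211 CPM in vehicle. Tumour markers summed to 134 CPM in RP-6306 macrophages and 170 CPM in vehicle macrophages, with 1 of 8 at 0 in each. That sum includes Cdh1, at 23.2 CPM in RP-6306 and 42.5 CPM in vehicle, above its level in tumour cells. Their part in the Isg15 result was not tested.

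T cells had the highest Isg15 level of the 4 classes in both libraries, and the library difference ran the other way within wide intervals. Isg15 had 428 CPM (311 to 574; 44 UMIs in 45 cells) in RP-6306 T cells, against 598 CPM (400.2 to 858; 29 UMIs in 28 cells) in vehicle T cells. The log2 ratio was -0.48 and the ratio 0.715 (0.438 to 1.19), which includes 1. The log2 ratio turned to 0.57 with at least 1000 genes and at most 10% mitochondrial UMIs required of a cell, which left 19 RP-6306 and 7 vehicle T cells. Usp18, Uba7 and Ube2l6 had 2 UMIs each in RP-6306 T cells and none in vehicle T cells, and Herc6 had 4 in RP-6306 and 5 in vehicle. Isg15, the only member with 20 UMIs over both libraries, was lower, where 51.8% of the 1232 features at that depth were higher and 20.5% were at least 1.5-fold higher. Isg15 was found in 44.4% of RP-6306 T cells and 35.7% of vehicle T cells. At 1000 UMIs per cell, which left out 12 RP-6306 and 6 vehicle T cells, 13 of 33 RP-6306 cells and 5 of 22 vehicle cells held it. Both shares run opposite to the CPM, so no order is read from them. Of the other interferon-stimulated genes, 3 reached 20 UMIs in T cells and 1 of these was higher with RP-6306.

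Tumour markers summed to 340 CPM in RP-6306 T cells and 206 CPM in vehicle T cells, with 3 of 8 at 0 in RP-6306 and 4 of 8 in vehicle. Krt8 in T cells stood at 0.191 of its tumour-cell level in RP-6306 and at 0.102 of it in vehicle. Isg15 stood at 4.02 times (2.92 to 5.41) its tumour-cell level in RP-6306 and at 10.3 times (6.90 to 14.8) in vehicle. Some leukocyte markers also differed between the T cells of the libraries. Cd8a had 24 UMIs in RP-6306 and 3 in vehicle (ratio 3.77, 1.15 to 19.6), and Ccr7 2 in RP-6306 and 8 in vehicle (0.118, 0.0122 to 0.591). Trac had a ratio of 0.553 (0.376 to 0.817), while that of Cd3e, 0.837 (0.529 to 1.34), included 1. The part of all these markers in the T-cell difference was not tested.

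In fibroblasts Isg15 had 127 CPM (91.0 to 173; 40 UMIs in 47 cells) in RP-6306 and 42.5 CPM (20.4 to 78.1; 10 UMIs in 36 cells) in vehicle, a log2 ratio of 1.56 and a ratio of 2.999 (1.47 to 6.72). A single RP-6306 cell held 20 of the 40 UMIs and a single vehicle cell 5 of the 10, and without both cells the log2 ratio was 1.51. Usp18 had 8 UMIs in RP-6306 fibroblasts and none in vehicle fibroblasts, with a lower interval bound of 1.28 for the ratio, and a single cell held 4 of the 8. Uba7 had 3 UMIs in RP-6306 and 1 in vehicle, Ube2l6 7 in RP-6306 and 3 in vehicle, and Herc6 5 in RP-6306 and 1 in vehicle. Isg15, the only member with 20 UMIs over both libraries, was higher, as were 49.1% of the 3946 features at that depth, and at least 1.5-fold higher, as were 15.5%. Isg15 was found in 23.4% of RP-6306 fibroblasts and 11.1% of vehicle fibroblasts, but at 1000 UMIs per cell in 2 of 47 RP-6306 cells and 2 of 36 vehicle cells, from which no order is read. Of the other interferon-stimulated genes, 5 reached 20 UMIs in fibroblasts and all 5 were higher with RP-6306. Tumour markers summed to 82.8 CPM in RP-6306 fibroblasts and 106 CPM in vehicle fibroblasts. Some fibroblast markers also differed between the libraries. Pdgfrb had 303 CPM in RP-6306 and 675 CPM in vehicle (0.448, 0.344 to 0.581). Dcn had 1917 CPM in RP-6306 and 1321 CPM in vehicle (1.45, 1.26 to 1.67), while Col1a1 had a ratio of 0.988 (0.955 to 1.02). The part of these marker differences in the Isg15 result was not tested.

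The order of Isg15 levels was T cells, macrophages, fibroblasts and tumour cells in RP-6306, and T cells, macrophages, tumour cells and fibroblasts in vehicle. Fibroblasts and tumour cells did not differ beyond counting error in either library, with fibroblast over tumour ratios of 1.20 (0.856 to 1.63) in RP-6306 and 0.733 (0.351 to 1.35) in vehicle. Macrophages had 1.70 times (1.52 to 1.90) the tumour-cell level in RP-6306 and 1.44 times (1.21 to 1.70) in vehicle. Macrophages were shallower, with medians of 3874 UMIs in RP-6306 and 4364 UMIs in vehicle. With cells thinned to 2000 UMIs, the detection shares of Isg15 in macrophages and tumour cells had overlapping intervals. They were 17.1% (13.3 to 21.4) of macrophages and 14.7% (13.9 to 15.5) of tumour cells in RP-6306. In vehicle they were 9.28% (6.39 to 12.9) and 8.52% (7.90 to 9.18). The part of depth in the class order was not tested. Over fibroblasts, macrophages had 1.42 times (1.02 to 2.02) the level in RP-6306 and 1.96 times (1.04 to 4.17) in vehicle. Both lower bounds are close to 1. A single fibroblast held 20 of the 40 Isg15 UMIs in RP-6306 and 5 of the 10 in vehicle, an unevenness that these intervals do not cover. T cells had more Isg15 than macrophages in both libraries, with a macrophage over T cell ratio of 0.422 (0.308 to 0.593) in RP-6306 and 0.139 (0.0930 to 0.215) in vehicle.

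By CPM, the other members were also higher in macrophages than in tumour cells. Uba7 had 4.72 times (2.78 to 7.57) the tumour-cell level in RP-6306 macrophages and 2.74 times (1.29 to 5.16) in vehicle macrophages. Herc6 had 2.02 times the tumour-cell level in RP-6306 and 2.15 times in vehicle, and Ube2l6 1.68 times in RP-6306 and 1.78 times in vehicle. Usp18 had 1.76 times (1.08 to 2.71) the tumour-cell level in RP-6306 and 2.06 times (1.14 to 3.44) in vehicle. In each of these 8 comparisons the interval lay above 1. With cells thinned to 2000 UMIs, all 4 genes were detected in a larger share of macrophages than of tumour cells in both libraries. Only for Ube2l6 in vehicle did the intervals lie apart, at 5.99% (3.70 to 9.10) of macrophages and 2.92% (2.55 to 3.33) of tumour cells. The part of depth in these ratios was not tested. Krt8 in macrophages was at 0.0750 of its tumour-cell level in RP-6306 and at 0.0718 in vehicle. In T cells and fibroblasts these 4 genes had at most 8 UMIs a library. Of those, Herc6 in T cells had 3.85 times (1.05 to 9.90) its tumour-cell level in RP-6306 (4 UMIs) and 15.2 times (4.92 to 35.7) in vehicle (5 UMIs). Usp18 in RP-6306 fibroblasts had 3.77 times (1.62 to 7.48) its tumour-cell level.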

How the data were processed

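The authors deposited unnormalized UMI counts for each gene in each barcode. Per the file headers they were written by Cell Ranger 7.1.0, whereas version 2.1.1 and mm10 stand in the submitters' processing notes. Libraries used a 10x Genomics 3′ kit, per the labels, so isoforms cannot be told apart. The sources used here do not say whether intronic reads were counted.

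Cells needed 500 genes and at most 15% mitochondrial UMIs. The automatic doublet threshold of Scrublet (scanpy 1.11.5) called 1 and 0 cells and was taken as failed. Cells that scored above the cut for the highest 8% of their library were removed instead. These were 808 of 10308 RP-6306 cells and 684 of 9540 vehicle cells, since cells at the cut itself were kept. Gates required 2 of 8 tumour, 4 of 11 macrophage (with 20 such UMIs per 10000) or 3 of 10 T-cell markers. The fibroblast gate required 3 of 4 markers (Col1a2, Dcn, Lum, Pdgfra). The other 4 fibroblast markers were also found in tumour cells and did not count. Cells that met the marker count of another class were excluded, but macrophages, T cells and fibroblasts could hold up to 2 tumour markers. Further exclusion limits were 3 endothelial (of Pecam1, Kdr, Emcn, Cldn5 and Egfl7), 2 dendritic or 3 neutrophil markers. Gate thresholds were set after seeing the data, and the members, marker lists and gene lists were chosen with earlier results of these data known. Cells outside all gates were left out of the comparisons (1197 RP-6306 and 928 vehicle).

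UMIs were summed per class and library and scaled to CPM; log2 ratios use a pseudocount of 1 CPM. Intervals are exact Poisson (levels), Clopper-Pearson (shares), exact conditional (ratios) and square-and-add (share differences). Cells are not replicates, so no p-value was computed. Genes named are the members and, of each list, the 3 most abundant and the 3 with the largest absolute log2 ratio in tumour cells at 20 UMIs or more, and the 5 most like Isg15. Ifih1, Ifit3 and Bst2 in macrophages, and the cell groups by cycling, depth, Ifnb1 and C1q, were chosen after their values were seen. Herc2 and Herc4 in tumour cells were also named after their values were seen. So were Cd8a, Ccr7, Trac and Cd3e in T cells, and Pdgfrb, Dcn and Col1a1 in fibroblasts. Some genes under this rule are not reported here. Of 16 listed ISGylated proteins 15 were matched. The scripts were tested on simulated data. Alternatives were other scalings (edgeR 4.0.16 TMM, DESeq2 1.42.0 median of ratios), gates, filters, pseudocount, thinning and doublet removal.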

Additional observations from a re-analysis of the deposited data

Results flagged for a closer look

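The Isg15 log2 ratio in T cells, -0.48, was opposite in sign to that in tumour cells, 0.86. This difference between the classes was not tested, it rests on 44 UMIs in 45 RP-6306 cells and 29 UMIs in 28 vehicle cells, and the T-cell interval includes no difference. It turned to 0.57 in T cells with at least 1000 genes and at most 10% mitochondrial UMIs.

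The retained cells outside the 4 gates, which enter no comparison above, held more Isg15 in the RP-6306 library than in the vehicle library. Isg15 stood at 183 CPM (172 to 195; 1197 cells) in RP-6306 and 99.6 CPM (90.6 to 109; 928 cells) in vehicle. In these cells Usp18 had 10.3 CPM in RP-6306 and 6.06 CPM in vehicle, Herc6 15.5 CPM in RP-6306 and 11.7 CPM in vehicle, Ube2l6 25.7 CPM in RP-6306 and 22.0 CPM in vehicle, and Uba7 4.28 CPM in RP-6306 and 5.16 CPM in vehicle. Their median depth was 4246 UMIs in RP-6306 and 4037 UMIs in vehicle.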

How the results depend on the processing

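No paired analysis was possible because each treatment has 1 library and no test was run; for the same reason no replicate could be left out. Isg15 in tumour cells had a log2 ratio of 0.98 under a stricter gate and 0.79 as a mean of per-cell CPM, against 0.86, and 0.79 to 0.98 over all 10 alternatives. Its share difference there, 6.13 percentage points, was 3.16 with cells thinned to 1000 UMIs, 9.52 without thinning and 4.997 without doublet removal. The Usp18 detection ratio in vehicle tumour cells, 3.66, was 8.27 with cells thinned to 1000 UMIs and otherwise 2.70 at the lowest; in RP-6306 cells it ran from 4.10 to 7.99. Isg15 in T cells turned to 0.57 with at least 1000 genes and at most 10% mitochondrial UMIs, which left 19 RP-6306 and 7 vehicle cells. Uba7 in tumour cells turned to -0.028 as a mean of per-cell CPM, so 4 to 5 members were higher there, and 5 in macrophages under every alternative. The cause of these shifts was not tested. Isg15 ran from 1.03 to 1.15 in macrophages and 1.51 to 1.997 in fibroblasts. TMM scaling moved the T-cell scale by 0.26 (log2) toward RP-6306. The looser tumour gate, leaving out barcodes found in both libraries, another random draw, and leaving out the cell with most Isg15 in T cells and fibroblasts were added after seeing the data. Depth limits the results in T cells and fibroblasts, and for Uba7 in all classes.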
